A study of Drosophila melanogaster with 3 samples.

Results

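The 8 genes described here encode the subunits of the cytosolic chaperonin CCT (also called TRiC) in *Drosophila melanogaster*, and were taken by their symbols CCT1 to CCT8 from the Release 6 annotation, 8 of 13968 protein-coding genes. The measurement was chromatin immunoprecipitation with sequencing (ChIP-seq) of Ets97D, a member of the ETS family of transcription factors and the fly relative of mammalian GABP alpha. Whole embryos of mixed sex, 0 to 24 h old, came from the transgenic strain Delg-GFP, which carries Ets97D with GFP (named eGFP in the sample descriptions) at its C terminus; the antibody recognised GFP, and chromatin was sheared by sonication. All 3 samples, biological replicates 1, 2 and 3 by their labels, form 1 group, so no condition was compared. Whole embryos pool all cell types and many stages, the protein measured is a fusion, and what drives the transgene is not given in the labels.

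CCT is a double-ring ATPase of the cytosol that folds newly made proteins, best known for actin and tubulin. Each ring holds 1 copy of each of the 8 different subunits, CCT1 (alpha), CCT2 (beta), CCT3 (gamma), CCT4 (delta), CCT5 (epsilon), CCT6 (zeta), CCT7 (eta) and CCT8 (theta). The subunits are related in sequence, but each has its own fixed place in the ring and its own surface for substrates. In the fly genome each is encoded by a gene of its own, so the 8 promoters can be compared within 1 complex whose products are used in equal number.

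Ets97D-eGFP peaks lay at the start sites of most CCT genes, at a middling strength and at levels that differed between genes. In the optimal set, the peaks that the authors kept as reproducible, 6 of the 8 genes (CCT1, CCT2, CCT4, CCT5, CCT6 and CCT7) had a summit within 500 bp of a transcription start site (TSS), as did 36.5% of all protein-coding genes. CCT3 and CCT8 had none. With any region of the pooled list in place of the optimal peaks, 7 of 8 had one, all but CCT8, against 59% of genes. Among the 5595 strongest regions of each replicate, the number of the optimal set, replicate 1 had a summit at 6 CCT genes (35.6% of all genes), replicate 2 at 8 (36.6%) and replicate 3 at 6 (34.7%). The 2 genes missing in replicates 1 and 3 were again CCT3 and CCT8, and the mean share of the complex was 83.3% ± 14.4 (SD, n = 3). In replicate 2 they were counted through summits at -494 bp of CCT3 and -219 bp of CCT8. Those summits also lay within 500 bp of the TSS of CG10324 and of CG30349, respectively. With any region of their full lists, replicate 1 had one at 7 CCT genes (55.2% of all genes), replicate 2 at 8 (58.4%) and replicate 3 at 8 (58.7%).

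The stretches directly upstream of the TSS of CCT1, CCT2, CCT3, CCT4, CCT6 and CCT7 are shown for the word CGATA, which 5 of them hold and that of CCT7 does not. Of these 6 genes, all but CCT3 have an optimal peak at the TSS. They are from the NCBI Release 6 (dm6) sequence, 5′ to 3′ on the strand of the gene, and end 1 base before the first base of the transcript. Each is 150 bp long, except at CCT4, where 58 bp separate the gene from an exon of CG6153. Capitals mark CGATA on either strand (TATCG on the other), TATCGATA, which holds CGATA on each strand, and TATAAA.
CCT1, 3R:22491440-22491589, minus strand: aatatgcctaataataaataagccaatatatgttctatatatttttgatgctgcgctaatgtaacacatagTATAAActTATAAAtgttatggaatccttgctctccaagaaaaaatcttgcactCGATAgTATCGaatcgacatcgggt
CCT2, X:9089363-9089512, plus strand: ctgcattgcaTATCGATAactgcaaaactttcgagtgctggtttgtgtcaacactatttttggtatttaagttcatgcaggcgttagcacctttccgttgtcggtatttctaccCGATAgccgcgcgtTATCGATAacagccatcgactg
CCT3, 3R:16647455-16647604, plus strand: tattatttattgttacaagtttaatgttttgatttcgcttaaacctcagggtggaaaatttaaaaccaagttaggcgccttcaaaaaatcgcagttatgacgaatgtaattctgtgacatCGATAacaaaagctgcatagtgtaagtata
CCT4, 2L:12692935-12692992, minus strand: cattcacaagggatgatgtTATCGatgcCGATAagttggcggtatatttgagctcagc
CCT6, X:15746498-15746647, plus strand: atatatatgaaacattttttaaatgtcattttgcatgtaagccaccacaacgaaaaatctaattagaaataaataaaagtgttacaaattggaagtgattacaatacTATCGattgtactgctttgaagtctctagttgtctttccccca
CCT7, 3R:8801414-8801563, plus strand: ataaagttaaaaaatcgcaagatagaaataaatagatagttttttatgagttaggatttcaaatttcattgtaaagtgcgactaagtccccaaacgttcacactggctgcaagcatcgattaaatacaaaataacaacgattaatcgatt
A CGATA word began at -25 and -19 bp of the TSS of CCT1, at -36, -22 and -19 bp of CCT2, at -30 bp of CCT3, at -39 and -30 bp of CCT4 and at -43 bp of CCT6. In CCT2 the words at -22 and -19 bp are the strands of a single TATCGATA, and another TATCGATA began at -140 bp. The stretch of CCT7 held none of the marked words, and its nearest CGATA words began at -224 and -236 bp.

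All 8 CCT genes had CGATA on either strand within 300 bp upstream of the first TSS, as did 46.4% of protein-coding genes. Within 50 bp upstream, a window chosen after the positions were seen, 7 of 8 had it, all but CCT7, against 18.6% of all genes and 31.6% of the 5097 genes with an optimal peak at a TSS. CCT5 had it at -35 and -32 bp, again the strands of 1 TATCGATA, and CCT8 at -44 and -37 bp. TATCGATA, the word known as the DNA replication-related element, lay within 300 bp upstream of CCT2 and CCT5 and of 8.58% of genes. GGTCACAC (core promoter Motif 1) lay there in CCT4 and 4.80% of genes, CAGCTG in CCT5, CCT7 and 15.3%, TATAAA in CCT1, CCT3, CCT5 and 48.0%, and CAGGTAG (the word of the early embryonic factor Zelda) in CCT2 and 1.80%. The ETS words CCGGAA and CCGGAAG were in none of the 8, and in 6.81% and 1.25% of genes. CACGTG (3.37% of genes), GAGAGAG (5.88%) and GAANNTTC (8.93%) were also in none of the 8. A match is a description of letters and not a site, and a missing match says only that those letters are not in that window.

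Around the 6 summits themselves, within 50 bp on either side, the 11 words gave 7 pairs of a gene and a word. CGATA was present at CCT2, CCT4, CCT5 and CCT6, and at 37.7% of the 4118 optimal peaks with a summit within 500 bp of a TSS, called promoter peaks here. TATCGATA was present at CCT5 (9.91% of promoter peaks), GGTCACAC at CCT6 (7.72%) and TATAAA near the CCT1 summit (12.9%). CCGGAA and CCGGAAG lay at none of the 6 summits, and at 3.62% and 0.801% of promoter peaks. The GC content of the same windows was 26.7% at CCT1, 25.7% at CCT7, 39.6% at both CCT5 and CCT6, and 45.5% at both CCT2 and CCT4, where the median of promoter peaks was 40.6%.

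The CCT genes are scattered over the genome, so no peak served more than 1 of them. CCT1 (FBgn0003676) lies at 3R:22489105-22491439 on the minus strand, CCT3 (FBgn0015019) at 3R:16647605-16649978 and CCT7 (FBgn0037632) at 3R:8801564-8806234, both on the plus strand. CCT2 (FBgn0030086) lies at X:9089513-9092826 and CCT6 (FBgn0027329) at X:15746648-15748971, both on the plus strand, and CCT4 (FBgn0032444) at 2L:12690336-12692934 on the minus strand. CCT5 (FBgn0010621) lies at 2R:12174802-12177516 on the plus strand and CCT8 (FBgn0284436) at 2R:8904844-8906990 on the minus strand. CCT5 has 2 annotated TSS positions and the other 7 genes have 1 each.

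The pooled signal, the authors' value for ChIP over control at a region, on a scale they do not state, put CCT7 highest and CCT6 lowest. The CCT7 peak, at 3R:8801201-8801650, had a pooled signal of 289 and was number 1011 of the 5595 optimal peaks and 853 of the 4118 promoter peaks. CCT4 followed with 224 at 2L:12692731-12693180 (promoter peak 1352), and CCT2 with 208 at X:9089337-9089508 (promoter peak 1541). The CCT2 peak was 172 bp wide and the other 5 were 450 bp wide.
CCT1 had a pooled signal of 176 at 3R:22491322-22491771 and CCT5 of 175 at 2R:12174577-12175026, neighbours at positions 2009 and 2030 among promoter peaks. CCT6 had 106 at X:15746403-15746852, promoter peak 3569, above the lowest optimal peak at 89.1. The median of the 4118 promoter peaks was 173, with quartiles of 123 and 262. The median of all 8 CCT genes, with the 2 genes without a peak placed lowest, was 175, and that of the 6 with a peak 192. Thus on the pooled signal 5 of the 6 CCT peaks were at or above the median promoter peak, CCT1 and CCT5 only just. On the mean relative signal described below, CCT1 and CCT5 fell below it, with 49.7% and 42.8% of matched promoter peaks lower. None of the 6 was near the top of the list, as the curve of ranked promoter signals shows.

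**Figure D1:**
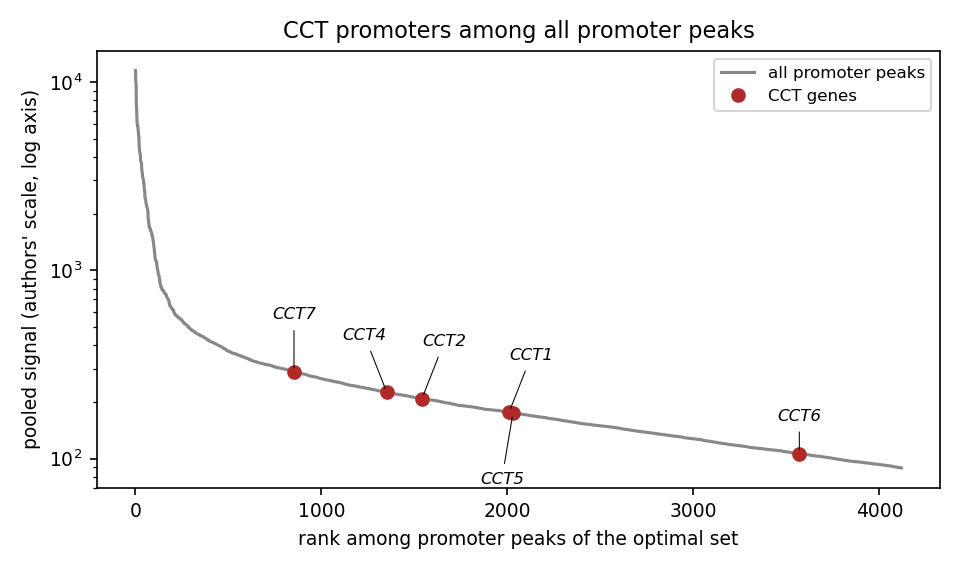
Pooled signal (authors' scale, log axis) of the 4118 promoter peaks against their rank, as a grey line, with the 6 CCT peaks as red points. CCT7 (289) stands highest and CCT6 (106) lowest of the CCT genes, with CCT1 (176) and CCT5 (175) almost on the same spot.

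For levels in single replicates, each replicate's signal was divided by the median of its 5595 strongest regions, since the lists are on scales of their own, and the region used was the strongest with a summit within 150 bp of the pooled summit. On this relative signal CCT7, the eta subunit, reached 1.82 in replicate 1, 1.68 in replicate 2 and 1.80 in replicate 3, a mean of 1.77 ± 0.0779 (SD, n = 3). CCT4, the delta subunit, reached 1.44, 1.15 and 1.36, a mean of 1.32 ± 0.150 (SD, n = 3). All 3 values of CCT7 were above all 3 values of CCT4. CCT2, the beta subunit, had 1.55, 1.42 and 0.977 in replicates 1, 2 and 3, a mean of 1.32 ± 0.300 (SD, n = 3), with replicate 3 low. Its range held all 3 values of CCT4, and the 2 means were equal at this precision.

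CCT1, the alpha subunit, had relative signals of 0.730, 1.19 and 1.31 in replicates 1, 2 and 3, a mean of 1.08 ± 0.306 (SD, n = 3), with replicate 1 low. CCT5, the epsilon subunit, had 1.01, 0.769 and 1.17, a mean of 0.980 ± 0.200 (SD, n = 3). In replicate 2 the strongest region near CCT5 had its summit at -162 bp and a relative signal of 1.70. That summit lay too far from the pooled one to be matched, and with it in place of the matched region the mean of CCT5 was 1.29 ± 0.365 (SD, n = 3). CCT6, the zeta subunit, had 0.698, 0.733 and 0.623, a mean of 0.684 ± 0.0559 (SD, n = 3), and its 3 values were below every value of CCT7, CCT4, CCT2 and CCT5.

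**Figure D2:**
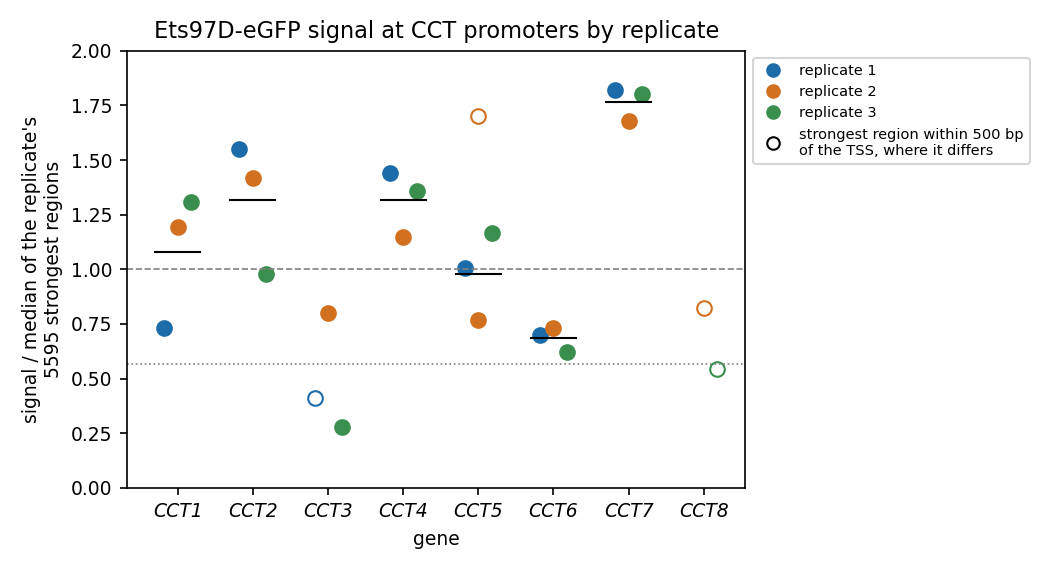
Signal of each replicate divided by the median of its 5595 strongest regions (vertical axis), for the 8 CCT genes; filled points are regions matched to the pooled summit, open points are the strongest region within 500 bp where that differs, bars are means of 3 replicates, the dashed line is that median and the dotted line is the mean of the lowest strongest-set values (0.557, 0.570 and 0.574). Among filled points, CCT7 lies between 1.68 and 1.82 and CCT6 between 0.623 and 0.733, while the values of CCT1, CCT2, CCT4 and CCT5 overlap. The open point of CCT5 in replicate 2 (1.70) lies within the range of CCT7.

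The order of means was thus CCT7, CCT4 and CCT2 level, CCT1, CCT5 and CCT6. Of its 15 pairs, 8 had no overlap between their replicate values, and 10 had the same sign in 3 of 3 replicates. Which gene of a pair was higher was set from the same values. Pairs of other promoter peaks were not counted, so these numbers cannot be read as a trait of the complex. An exact sign test over 3 replicates cannot go below p = 0.25 (two-sided), so no single pair could pass 0.05. On the matched regions, CCT7 exceeded each of the other 5 genes without overlap. The ratios of means ran from 1.34 (CCT4 and CCT2) to 2.58 (CCT6). With the strongest region within 500 bp of a TSS, or with matching within 300 bp, CCT5 reached 1.70 in replicate 2. It then overlapped CCT7 (1.68 to 1.82). CCT6 was below CCT2 and CCT4 by 1.92 and below CCT5 by 1.43 without overlap, and below CCT1 by 1.57 in 3 of 3 replicates with overlap. The neighbours CCT4 and CCT2, CCT2 and CCT1, and CCT1 and CCT5 overlapped, and none of these neighbouring pairs had the same sign in all replicates.

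In regions matched to the pooled summit, CCT7 was the highest gene of the complex and CCT6 the lowest of the 6 in each replicate. Taken by the strongest region within 500 bp of a TSS, CCT5 (1.70) was instead above CCT7 (1.68) in replicate 2. On the matched regions the ratio of CCT7 to CCT6 was 2.61, 2.29 and 2.89 in replicates 1, 2 and 3. Its mean was 2.60 ± 0.303 (SD, n = 3), and on the pooled signal it was 2.73. The SD of the 6 log2 relative signals was 0.53 ± 0.055 (SD, n = 3). Measured alike on the pooled signal, the ratio of the upper to the lower quartile was 1.26 over the 6 CCT peaks and 2.12 over all promoter peaks, so the CCT peaks lay closer together than promoter peaks at large by this measure, which was not tested. The median of all 8 genes, with absent genes placed lowest, was 0.868, 0.974 and 1.07 in replicates 1, 2 and 3, or 0.971 ± 0.102 (SD, n = 3). The median of the 6 genes with a peak was 1.22, 1.17 and 1.24, or 1.21 ± 0.035 (SD, n = 3). The median of promoter peaks, which all have a peak, was 1.09, 1.09 and 1.06 in the same replicates, between the 2 CCT medians in replicates 1 and 2 and below both in replicate 3.

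The CCT genes also differed in how far the replicates lay apart. The coefficient of variation over replicates was 4.41% at CCT7, 8.17% at CCT6, 11.4% at CCT4, 20.4% at CCT5, 22.8% at CCT2 and 28.4% at CCT1. Over the 3963 promoter peaks matched in all 3 replicates its median was 17.4%, with quartiles of 10.5% and 26.9%. The highest and the lowest CCT gene were therefore the 2 with the closest replicates. Of these promoter peaks, 78.7% had a lower mean level than CCT7, 63.7% lower than CCT4, 63.6% lower than CCT2, 49.7% lower than CCT1, 42.8% lower than CCT5 and 15.4% lower than CCT6.

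Whether a promoter stood apart from its replicates' median by more than the replicate spread was tested with limma across all 3963 promoter peaks, with Benjamini-Hochberg adjustment over all of them. CCT7 was above the median by 0.82 on the log2 scale (SE 0.13, adjusted p = 0.00437, 3 of 3 replicates), as were 32.4% of the peaks tested. CCT6 was below it at -0.55 (SE 0.13, adjusted p = 0.0190, 3 of 3 replicates), as were 16.2%. With the median of promoter peaks as the reference, the split over all peaks was 29.2% higher and 22.7% lower, and with limma's trend 35.5% and 12.9%. The CCT6 call was not kept with limma's trend (adjusted p = 0.0585), without replicate 1 (0.0754) or without replicate 3 (0.0788). The 4 middle genes did not pass: CCT4 at 0.39 (SE 0.14, adjusted p = 0.0624), CCT2 at 0.37 (SE 0.17, adjusted p = 0.129), CCT1 at 0.063 (SE 0.20, adjusted p = 0.808) and CCT5 at -0.050 (SE 0.16, adjusted p = 0.812). For CCT4 the adjusted p was 0.0449 with limma's trend and 0.0466 with regions matched within 300 bp. The replicates are labelled biological, but nothing says that they came from separate collections, so these p-values measure the spread between these samples.

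The summits of the 6 CCT peaks lay at or upstream of the TSS. In the pooled list they were at -108 bp for CCT1, -70 bp for CCT2, -22 bp for CCT4, 0 bp for CCT5, -20 bp for CCT6 and -138 bp for CCT7. Over promoter peaks the median position to the nearest TSS was -52 bp (quartiles -108 and -15 bp), and upstream summits made up 82.4%. The summit of CCT4 was at -24, 3 and -12 bp in replicates 1, 2 and 3, a span of 27 bp, and that of CCT1 at -98, -76 and -118 bp, a span of 42 bp. CCT6 (-34, -69 and -5 bp) spanned 64 bp and CCT2 (-71, 0 and -82 bp) spanned 82 bp. CCT5 (-66, 38 and 4 bp) spanned 104 bp and CCT7 (-50, -149 and -169 bp) spanned 119 bp, where the median span over promoter peaks was 42 bp, with quartiles of 22 and 74 bp. CCT7 thus combined the closest signals of the 6 genes with the widest span of summits, its replicate 1 summit lying nearer the TSS than the other 2.

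**Figure D3:**
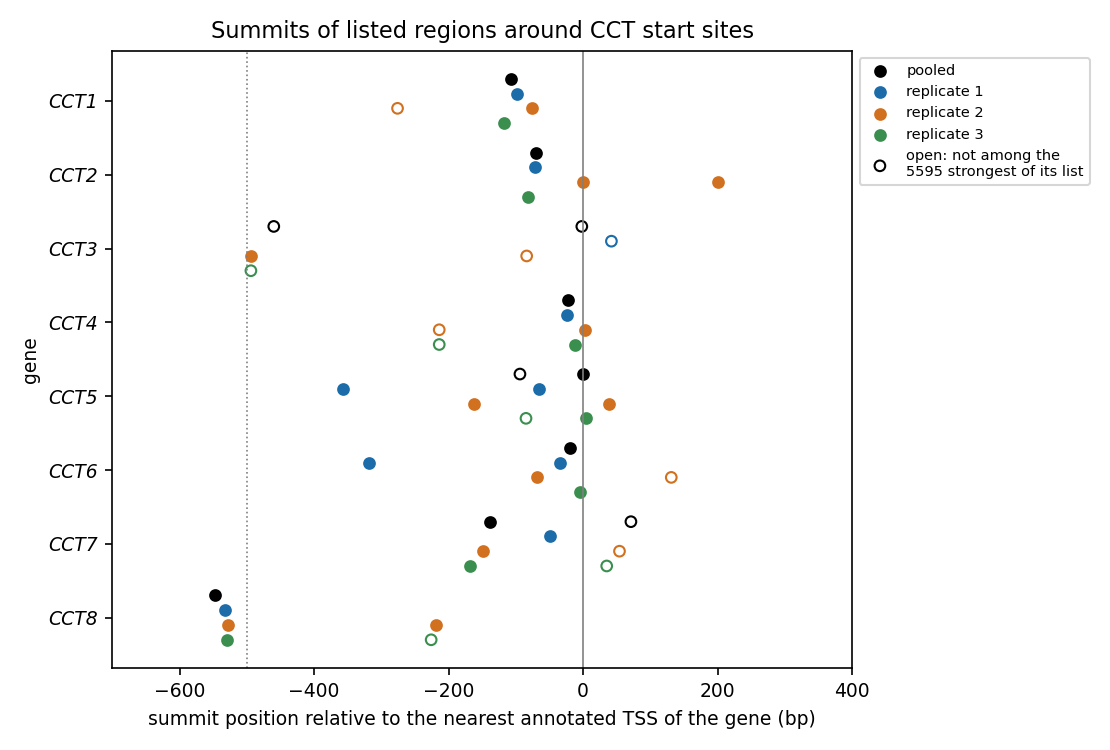
Summits of listed regions relative to the nearest annotated TSS of each CCT gene (bp, upstream to the left), for the pooled list and replicates 1, 2 and 3; filled points belong to the 5595 strongest regions of their list, and the dotted line marks 500 bp upstream. At 6 genes filled points of all 4 lists lie within 500 bp, while at CCT8 the pooled point is at -547 bp and at CCT3 the pooled points are open.

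Several CCT peaks lay between genes that start in opposite directions, and such a peak cannot be assigned to 1 of them. The CCT4 summit lay at -22 bp of CCT4 and -37 bp of CG6153, whose TSS is 59 bp away. The CCT7 summit was at -250 bp of a TSS shared by Pif1A and Pif1B, the CCT1 summit was at -282 bp of tHMG1 and the CCT6 summit at -397 bp of CG8944. So 4 of 6 CCT peaks were within 500 bp of a TSS of another gene, as were 1681 of 4118 promoter peaks (40.8%). The CCT2 and CCT5 peaks had no other TSS so near. The nearest other TSS was that of CG6999 at 1146 bp for CCT2 and that of Oda at 538 bp for CCT5.

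CCT3, the gamma subunit, had listed regions but none in the optimal set. The pooled list held a region at 3R:16646920-16647369 with its summit at -460 bp and a signal of 58.2, number 8353 of 27625, and another with its summit at -2 bp and a signal of 35.2, number 14681. The first lay at -141 bp of the TSS of CG10324, which runs the other way. The strongest region within 500 bp had a relative signal of 0.411 at 42 bp in replicate 1, 0.799 at -494 bp in replicate 2 and 0.277 at -494 bp in replicate 3, or 0.496 ± 0.271 (SD, n = 3). These strongest regions differed between replicates both in level and in position, so their mean joins regions at different places. Replicate 2 also had a weaker region at -84 bp, with 0.494, outside its 5595 strongest regions. Its value at -494 bp was among them.

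CCT8, the theta subunit, had an optimal peak just outside the distance set, with its summit at -547 bp and a pooled signal of 148, number 3174 of the optimal set. That summit lay 19 bp inside CG30349, whose TSS is 528 bp from that of CCT8 and points the other way. The region was present at -533 bp in replicate 1 with a relative signal of 0.882, at -528 bp in replicate 2 with 0.814 and at -529 bp in replicate 3 with 0.873. Closer to CCT8, replicate 2 had a region at -219 bp with 0.824 and replicate 3 one at -226 bp with 0.542, while replicate 1 had none. With a distance of 1000 bp, 7 of 8 CCT genes had an optimal peak, CCT8 being added, against 39.8% of all genes.

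Prefoldin hands unfolded actin and tubulin to CCT, and tubulin cofactors take up tubulin after it, so the genes of both were set beside the CCT genes. Of 6 prefoldin genes, 4 had an optimal peak at a TSS, with pooled signals of 260 (Pfdn5), 245 (Pfdn6), 171 (mgr) and 140 (Pfdn1); Pfdn2 and Pfdn4 had none. Of 5 tubulin cofactor genes, 4 had one, with 244 (Tbcd), 149 (Tbca), 111 (Tbce) and 101 (Tbcc), and Tbcb had none. Of the 5 genes of the mitochondrial chaperonin and its relatives, CG11267 (221) and Hsp60A (134) had one, and Hsp60B, Hsp60C and Hsp60D had none. The medians over genes with a peak were 208 for prefoldin and 130 for tubulin cofactors, beside 192 for CCT.

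Among 30 other chaperone genes, 16 had an optimal peak at a TSS, led by Hsp83, the fly Hsp90 (pooled signal 6012), and Calr, calreticulin (429), while Hsc70-1 and Hsc70-2 were among those without one. Among 16 actin and tubulin genes, which encode substrates of CCT, 7 had one, led by Act42A (244) and alphaTub84B (193), while Act57B and Act79B were among those without one. Among 32 proteasome genes, 28 had one, led by Rpn9 (439) and Rpn6 (431), while Prosalpha1 and Prosbeta2 were among the 4 without one. The medians over genes with a peak were 221, 136 and 195. The ratio of the highest to the lowest peak was 2.73 in CCT, above prefoldin (1.86), tubulin cofactors (2.43), the mitochondrial chaperonin list (1.64) and actin and tubulin (2.43), and below the proteasome (4.86) and the other chaperones (57.9, set by Hsp83). These lists differ in size. On the ratio of the upper to the lower quartile, CCT had the smallest value (1.26) of the lists where it was computed. That ratio was 1.48 for actin and tubulin, 1.52 for prefoldin, 1.59 for tubulin cofactors, 1.68 for the other chaperones and 1.71 for the proteasome. No CCT gene reached the signal of Calr or Rpn9. These counts describe the lists, and no difference between them was tested.

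**Figure D4:**
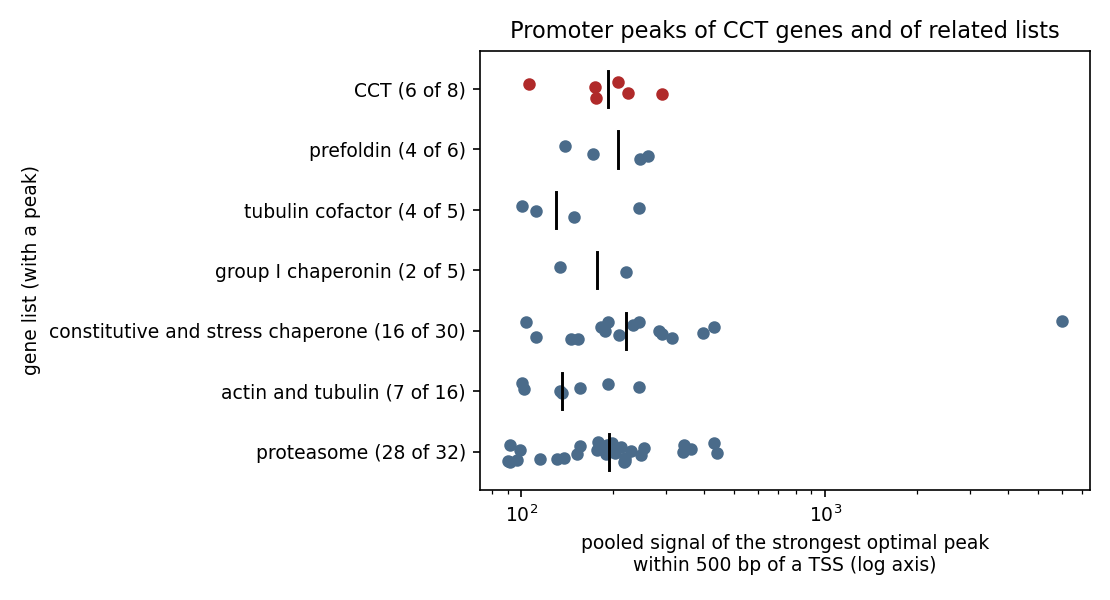
Pooled signal (log axis) of the strongest optimal peak within 500 bp of a TSS for each gene with one, by gene list; bars are medians, and labels give the genes with a peak of those in the list. The CCT points lie between 106 and 289, and the single point far to the right is Hsp83 (6012).

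The promoters most like the CCT genes were sought by the root mean square difference of log2 relative signals over the 3 replicates from the median of the 6 CCT genes, which was 1.20, 1.17 and 1.23 in replicates 1, 2 and 3. The closest was the promoter shared by CG9426 and mRF1, with 1.18, 1.20 and 1.23 and a difference of 0.030 on the log2 scale. MFS16 followed with 1.24, 1.16 and 1.20 and a difference of 0.038, and CG8613 with 1.18, 1.17 and 1.30 and a difference of 0.047. With 3 values per promoter this is a likeness of level only.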

How the data were processed

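ChIP-seq region lists of 3 biological replicates were used, in dm6 coordinates. Per the file headers, each replicate's list was derived from its alignment and a control, the pooled list from all alignments, and the optimal set by IDR (a test of reproducibility between lists). The deposited signal of each region is the authors' ChIP over control value, scale not stated, and the deposited −log10 q was used only to describe regions. The sources used here name no aligner, peak caller or IDR threshold. Read counts are absent from the lists: depth is unknown, and intervals for counting error cannot be computed.

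The optimal peaks are the 5595 pooled regions of highest signal, and each replicate's list held 24391, 28843 and 29122 regions. Summits were the start plus the deposited offset, written 1-based. Gene models were Ensembl's for Release 6 and sequences NCBI's. A gene was counted when a summit lay within 500 bp of any TSS of a protein-coding transcript. Words were sought on both strands. limma (intercept only, two-sided, threshold 0.05) tested log2 relative signal against 0. R 4.3.3, limma 3.58.1, Python 3.11.15, NumPy 2.4.6 and pandas 2.3.3 were used, and the procedures were tested on simulated data.

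The CCT genes, the 7 gene lists (102 names, all matched by symbol or synonym) and the words were chosen with earlier results of these data known. Named are all CCT genes, genes whose TSS lies within 500 bp of a summit assigned to a CCT gene, every prefoldin, tubulin cofactor and mitochondrial chaperonin gene, the 2 strongest and up to 2 peakless genes of the other lists, and the 3 most alike promoters. Oda, CG6999 and CG30349 were named after their positions were seen. Alternatives were the distance to the TSS, peak threshold, scaling, matching distance, limma's trend, word window and leaving out replicates. Control libraries, signal tracks and dm3 lists were not used here.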

Additional observations from a re-analysis of the deposited data

How the results depend on the processing

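No paired analysis was possible because there is only 1 group of replicates. The count of 6 CCT genes with an optimal peak ranged from 5 to 8. The 5 were with the strongest 50% of peaks (CCT6 lost, 22.1% of all genes). The 8 were with the strongest regions of replicate 2 alone (36.6%). Without any 1 replicate the count was 6, against 30.9%, 30.9% and 31.4% of all genes without replicates 1, 2 and 3. With regions matched within 75 bp, where CCT7 could not be matched in every replicate, 3 gene pairs had no overlap and the ratio of highest to lowest was 2.11. Without 1 replicate, 10 to 11 pairs had no overlap, a count that cannot fall below the 8 of the main setting when values are left out. The ratio was then 2.45 to 2.75 and the median of the 8 genes 0.921 to 1.02. Promoter peaks that passed the limma test as above the replicate median then numbered 972 to 1137, against 1283 with all. Each of those tests had fewer replicates. The median of the 8 genes was 3.61 on the median of the full lists, a change of scale, and 0.806 with the summit nearest to a TSS. Pairs of a gene and a word at the summits rose from 7 to 12 within 100 bp and fell to 2 within 25 bp. The log2 relative signal of CCT1 changed sign to -0.047 with the promoter-peak median, and without 1 replicate ran from -0.10 to 0.32 (below 0 without replicate 2 or 3). That of CCT5 changed sign to 0.33 with matching within 300 bp, and without 1 replicate ran from -0.19 to 0.11 (above 0 without replicate 2). None of these passed the threshold, and the cause was not tested. The adjusted p of CCT7 (limma) ran from 6.88e-05 to 0.0307 over the alternatives in which it could be matched. Taking each gene's strongest region within 500 bp was an alternative chosen after seeing the data, and gave 7 pairs without overlap, a ratio of 2.61 and a median of 1.04. Of all alternatives over all results, 110 were scored as the same, 15 moved a value, 5 changed a sign, 3 lost a call and 2 gained one. Direction and call were scored only for the limma values of single genes. Other results were scored as the same when the value stayed within a set tolerance.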
